A study of Sus scrofa with 28 samples.

Results

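The genes described here carry out or control the presentation of cell-internal peptides on MHC class I: PSMB8, PSMB9, PSME1, PSME2, TAP1, TAP2, TAPBP, B2M, NLRC5 and IRF1. Their chromatin was read from ATAC-seq of pig liver, an assay in which a transposase tags open DNA so that accessible sites appear as peaks. The 10 genes are among 19484 protein-coding genes of the 19 chromosomes with peaks. A peak was assigned to a gene when its centre lay inside the gene or within 1000 bp of either annotated end, in RefSeq coordinates of the Sscrofa11.1 build. This gave 66 of the 84192 listed peaks, in 12 sites of 29392. The genes were chosen by function with the peak lists already known, so how often they were listed, where and how strongly is a description without a test.

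All animals were female pigs of the Zlotnicka White breed, 180 days old, slaughtered at about 100 kg after the same feeding and housing. The labels divide the 28 liver libraries into 4 groups of 7: high fat content 200, low fat content 200, high fat content 600 and low fat content 600. They file these under a tag named shear force and do not say what 200 and 600 stand for, nor whether fat of the liver is meant. The series title names fat content as the question. Liver pieces were digested to a cell suspension and frozen before library preparation, so each library is a mixture of the liver's cell types, and fewer cells of a type cannot be told apart from less open chromatin per cell. Nothing in the labels names the animals, so p-values measure the spread between these libraries.

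A proteasome cuts proteins into peptides. Interferon gamma replaces catalytic beta subunits of the standard particle with the inducible ones, among them PSMB8 and PSMB9, and adds the PA28 cap made of PSME1 and PSME2. The transporter TAP1/TAP2 carries the peptides into the endoplasmic reticulum, where tapasin (TAPBP) holds it to empty class I molecules, each with the light chain B2M. NLRC5 is the transactivator of class I genes and IRF1 a transcription factor induced by interferon gamma that acts on many of these promoters. Hepatocytes express class I at a low level at rest and raise it with interferon.

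The sequencing depth of the libraries is unknown. The number of listed peaks ran from 39 to 17652. Its median was 1610 in the high fat 200 group, 2467 in low fat 200, 190 in high fat 600 and 526 in low fat 600. The value given for a peak is the deposited −log10 p, the authors' own, and its percentile is its rank among all peaks of the same library, where 100 is the strongest. Hepatocyte markers were listed for 6 of 8 genes, against 61.6% of all protein-coding genes and 68.9% of those with a gene symbol. HPX was listed in 12 libraries, TTR and FGG in 8 each, ALB in 7, and APOA1 and SERPINA1 in 2 each. The receptor genes ASGR1 and ASGR2 had no peak.

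Every one of the 10 genes had a peak in at least 1 library, against 61.6% of all protein-coding genes by the same rule. Among those with a gene symbol, as all members have, the share was 68.9%. TAP1 and PSMB9 were listed in 18 of 28 libraries, IRF1 in 12, PSME2 in 10, PSMB8 in 7 and PSME1 in 6. NLRC5 followed with 4 and B2M with 3, and TAP2 and TAPBP had 1 each. At least 10 libraries listed 4 of the members, against 9.64% of protein-coding genes. TAP1 and PSMB9 share 1 peak, so they count as 1 site. Since libraries with more peaks tend to list more genes, neighbouring ranks such as PSMB8 and PSME1, at 7 and 6 libraries, are not separated.

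**Figure D1:**
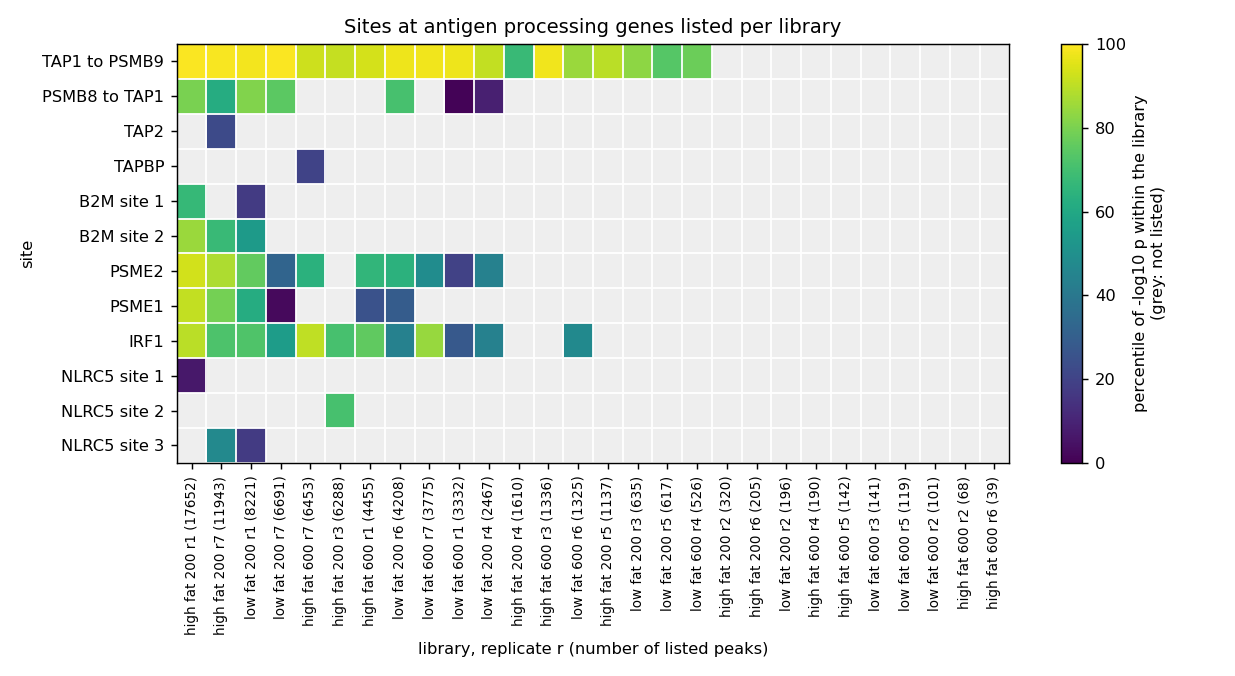
Sites at the 10 genes (rows) in the 28 libraries (columns, by falling number of listed peaks, given in brackets). Colour is the percentile of the peak's −log10 p within its library and grey means not listed. The TAP1 to PSMB9 site fills the 18 libraries on the left, and the 10 libraries on the right list no site.

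The site between TAP1 and PSMB9 was the most recurrent of the 12. It spans chromosome 7 from 25071135 to 25072980 and covers the 143 bp that separate the annotated ends of TAP1 (chromosome 7, 25062772 to 25071989) and PSMB9 (25072133 to 25077508). In human these genes are transcribed away from a shared bidirectional promoter. The gene table used here gives no strand. Of all protein-coding genes, 0.518% were listed in as many libraries or more. The 18 libraries that listed the site were those with at least 526 peaks, and the 10 that did not had at most 320. Its listing was thus complete in libraries with 526 peaks or more and absent in those with 320 or fewer. Of the 29392 sites, 45 were listed in all 18 of these libraries.

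In the high fat 200 group the −log10 p of this peak was 9.28 in replicate 1, 4.49 in replicate 3, 4.12 in replicate 4, 5.01 in replicate 5 and 8.12 in replicate 7. The 6 low fat 200 libraries gave 4.39 at the lowest, 5.89 at the median and 9.39 at the highest. The ranges of both fat groups overlap almost entirely. In the 600 set it was 5.79, 4.57 and 5.61 in high fat replicates 1, 3 and 7. Low fat 600 replicates 1, 4, 6 and 7 gave 5.80, 4.05, 4.43 and 6.76. The fat groups overlap here too. Within its library the peak stood at a median percentile of 93.0 (67.9 to 99.5). It was above the 90th percentile in 12 of 18 libraries, while only 3 of the 48 peaks at the remaining sites were.

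The summit of this peak lay in PSMB9 in 10 of 11 libraries of the 200 set and in the gap in the other, high fat replicate 4. Relative to the middle of the gap, summits of the 200 set lay at a median of 111 bp on the PSMB9 side (15 to 258 bp). In the 7 libraries of the 600 set the median was 50 bp on the TAP1 side, from −145 to 111 bp, where negative values point to TAP1. There, 2 summits lay in TAP1, 3 in the gap and 2 in PSMB9. The peak covered the whole gap in 10 of 11 libraries of the 200 set and in 7 of 7 of the 600 set.

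The PSMB8 gene, which encodes the inducible chymotrypsin-like subunit beta5i, had its peak in the 1105 bp between its upper end and TAP1. The site runs on chromosome 7 from 25061930 to 25062710, and PSMB8 itself from 25058456 to 25061666. Peak centres lay 612 to 791 bp from PSMB8 and 315 to 495 bp from TAP1, so the site belongs to both genes under the rule. With a window of 500 bp PSMB8 had none. In high fat 200 libraries the −log10 p was 5.55 in replicate 1 and 5.00 in replicate 7. Low fat 200 replicates 1, 4, 6 and 7 gave 5.64, 3.62, 4.68 and 5.55. Low fat 600 replicate 1 gave 3.04, at percentile 0.870 of its library, which is close to the weakest listed peaks. The high fat values lie inside the low fat range. Median width was 452 bp, against 1174 bp at the TAP1 to PSMB9 site, which more 600 libraries listed. Within the 200 set the medians were 451 and 834 bp.

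TAP2 (chromosome 7, 25045085 to 25056915), the other subunit of the transporter, had a single peak at its upper end in high fat 200 replicate 7, from 25056734 to 25057047. Its −log10 p was 4.12, at percentile 22.6. The transporter's TAP1 and TAP2 genes thus stood at 18 libraries and 1.

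**Figure D2:**
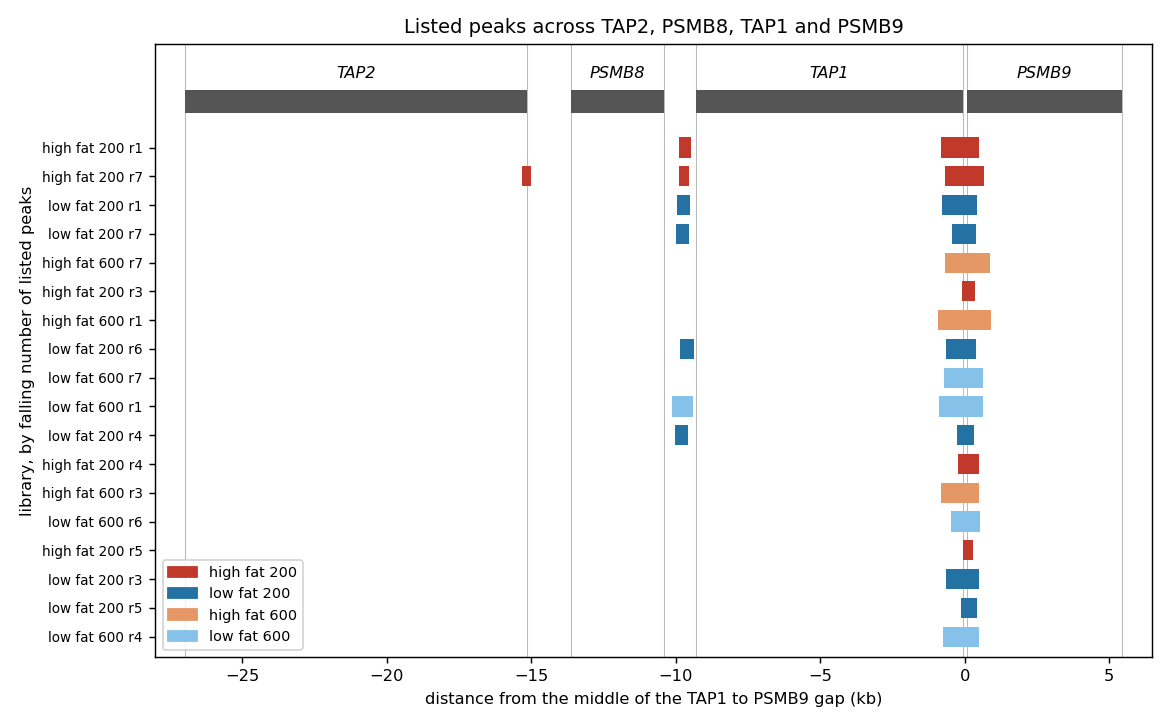
Listed peaks (bars) across TAP2, PSMB8, TAP1 and PSMB9 in the 18 libraries with any site, by distance in kb from the middle of the TAP1 to PSMB9 gap. Colours are the 4 groups. All 18 libraries have a peak over the gap at 0, 7 have one between PSMB8 and TAP1, and 1 has one at TAP2.

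Other proteasome subunits were taken as a list of 5 genes, of which 4 had a peak. PSMB5, the standard chymotrypsin-like subunit that PSMB8 replaces, was listed in 1 library and PSMB7 in 1. PSMB6, the subunit that PSMB9 replaces, was not listed. The third inducible subunit gene PSMB10 was listed in 2 libraries and PSME3, which encodes a nuclear cap protein, in 1. Their median was 1 library, which is also the median of all protein-coding genes, while that of genes with a symbol was 2.

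PSME2 and PSME1, the beta and alpha subunits of the PA28 cap, lie 3958 bp apart on chromosome 7 and had peaks at their outer ends. The PSME2 site (75153470 to 75154885) lay at the lower end of the gene (75154570 to 75157871). Its strongest peak per library had a −log10 p of 6.94 and 6.20 in high fat 200 replicates 1 and 7. Low fat 200 replicates 1, 4, 6 and 7 gave 5.38, 4.07, 4.52 and 4.30. The value was 4.36 and 4.30 in high fat 600 replicates 1 and 7, and 3.37 and 3.95 in low fat 600 replicates 1 and 7. In both sets the 2 listed high fat libraries exceeded the listed low fat ones. They also had more peaks than those, 17652 and 11943 in the 200 set against at most 8221, and the part of peak number in this was not tested. High fat 200 replicate 7 and low fat 200 replicate 7 listed the site as a pair of separate peaks.

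The PSME1 site (75163888 to 75165202) lay at the upper end of that gene (75161830 to 75164531). Its −log10 p was 6.55 and 5.66 in high fat 200 replicates 1 and 7, and 4.88, 3.98 and 3.64 in low fat 200 replicates 1, 6 and 7. High fat 600 replicate 1 gave 3.57, and no low fat 600 library listed it. The listed high fat 200 libraries again exceeded the low fat ones and were the 2 with most peaks in the series. All 6 libraries that listed PSME1 also listed PSME2, and the 4 others with PSME2 did not list PSME1.

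A further site between the PA28 genes (75158605 to 75159760) fell just outside the rule, with centres 1142 to 1393 bp beyond the upper end of PSME2. It lay nearest to EMC9, a subunit gene of a membrane protein insertion complex. It was listed in 13 libraries, 4 of high fat 200, 5 of low fat 200 and 2 of each 600 group, with a median −log10 p of 4.54. The farthest peaks inside the window were those between PSMB8 and TAP1, at up to 791 bp from PSMB8, and those of PSME2, at up to 781 bp. TAPBP had 2 sites just outside, at 1570 and 2307 bp, in 1 library each.

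**Figure D3:**
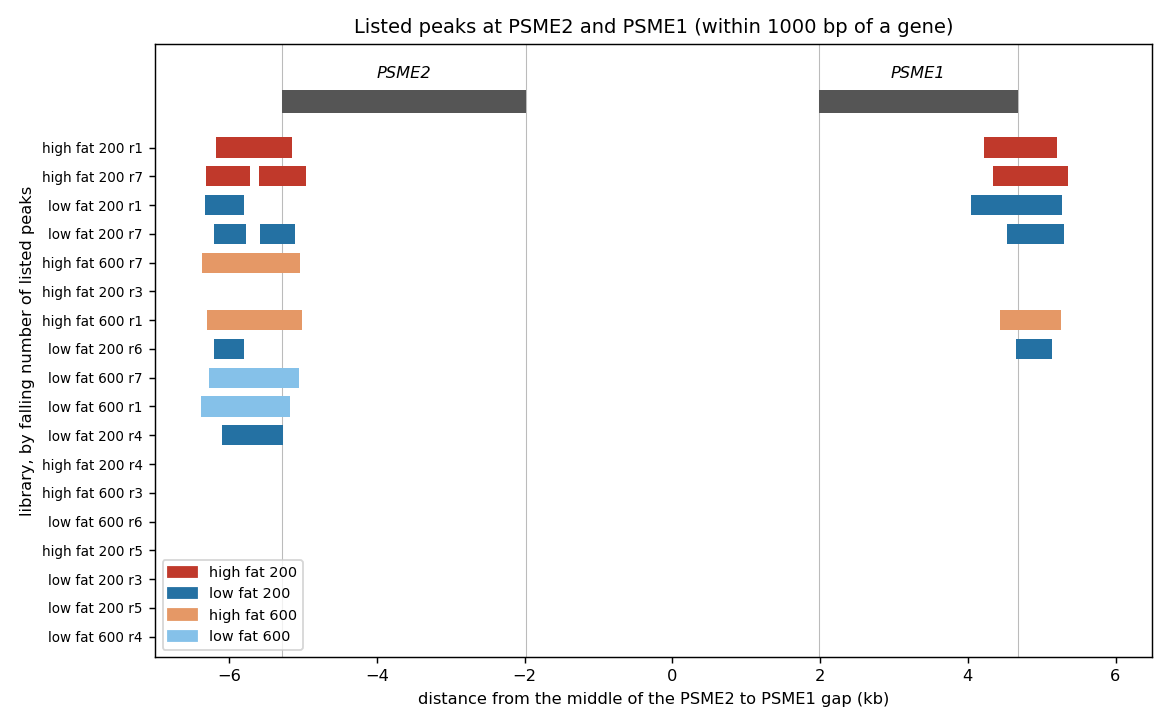
Listed peaks (bars) at PSME2 and PSME1 in the same 18 libraries, by distance in kb from the middle of the gap between the genes. Peaks lie at the outer end of each gene, in 10 libraries at PSME2 and in 6 at PSME1; the site nearest to EMC9 is not drawn.

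IRF1 (chromosome 2, 134776122 to 134783646) had its peak at the upper end, from 134782709 to 134784398. The annotated span of SLC22A5, a carnitine transporter gene, encloses IRF1. In high fat 200 replicates 1, 3 and 7 the −log10 p was 6.40, 4.15 and 5.35. Low fat 200 replicates 1, 4, 6 and 7 gave 5.22, 4.07, 4.18 and 4.83. High fat 600 replicates 1 and 7 gave 4.67 and 5.42, and low fat 600 replicates 1, 6 and 7 gave 3.47, 3.64 and 5.14. The ranges overlap in each set. The peak stood at a median percentile of 71.5 and was 1202 bp wide at the median. The smallest library to list it had 1325 peaks and the largest not to list it had 1610.

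NLRC5 (chromosome 6, 18933179 to 19036288) is 103110 bp long and had peaks only within its body, 4374 to 49239 bp from the nearest end. They formed 3 sites. High fat 200 replicate 1 listed the first (18937355 to 18937750) with a −log10 p of 3.59, and high fat 200 replicate 3 the second (18982206 to 18982629) with 4.15. The third (19000911 to 19001319) was listed with 4.60 in high fat 200 replicate 7 and 4.01 in low fat 200 replicate 1. None of the 600 libraries listed any of them. The ends of the class I transactivator gene were thus without a listed peak, while IRF1 had one in 12 libraries.

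The light chain gene B2M is annotated as 2 models on chromosome 1, at 126837721 to 126844043 and at 126865767 to 126878501. Values at these copies are uncertain, since the sources used here do not say how reads that fit both were treated. The first model had a peak at its upper end (126843890 to 126844241) with a −log10 p of 4.88 in high fat 200 replicate 1 and 4.01 in low fat 200 replicate 1. A noncoding gene, LOC110261204, begins beside it. The second had a peak inside the gene (126871507 to 126872147) with 5.92 and 5.18 in high fat 200 replicates 1 and 7 and 4.69 in low fat 200 replicate 1. TAPBP (chromosome 7, 29663491 to 29673453) had 1 peak at its lower end, from 29662699 to 29663559 and next to RGL2, in high fat 600 replicate 7 with a −log10 p of 3.48. TAPBP was the member without any peak in the 200 set.

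Libraries listed between 0 and 9 of the 10 genes. High fat 200 libraries ranged from 0 to 9 with a median of 2, and low fat 200 libraries from 0 to 8 with a median of 5. High fat 600 libraries ranged from 0 to 5 with a median of 0, and low fat 600 libraries from 0 to 5 with a median of 2. In each group replicate 4 had the median number of peaks. It listed 6.10% of all protein-coding genes in high fat 200 and 12.3% in low fat 200. In the 600 set it listed 0.703% in high fat and 2.79% in low fat. The part of peak number in these medians was not tested. The highest number, 9, was in high fat 200 replicate 7, which had 11943 peaks and listed 40.3% of protein-coding genes. High fat 200 replicate 1 had 17652 peaks and 48.2% of genes, and listed 8 members. In 6 libraries TAP1 and PSMB9 were the sole members. One of them, low fat 600 replicate 4, listed them while it listed 2.79% of protein-coding genes.

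High and low fat libraries were then compared for how many listed each site. In the 200 set, 5 of 7 high fat and 6 of 7 low fat libraries listed the TAP1 to PSMB9 site, a difference of −14.3 percentage points (Fisher's exact test, two-sided, p = 1, adjusted p = 1 over 7465 sites). The site between PSMB8 and TAP1 and that of PSME2 each had 2 of 7 against 4 of 7, −28.6 points (exact p = 0.592, adjusted p = 1). IRF1 had 3 against 4, PSME1 2 against 3 and the inner B2M site 2 against 1, each with exact p = 1. Of the members, 6 sites could be tested and 0 passed; of all sites tested 0% passed, and 1 had an unadjusted p under 0.05. With 7 libraries against 7 the smallest p is 0.000583, so a lone site could not pass after adjustment. No member difference exceeded the spread between libraries by this test.

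In the 600 set, the TAP1 to PSMB9 site was listed in 3 of 7 high fat and 4 of 7 low fat libraries, −14.3 points (exact p = 1, adjusted p = 1 over 3404 sites). IRF1 had 2 against 3, and PSME2 had 2 against 2. Of 3 member sites tested 0 passed, as did 0% of all sites, and 0 had an unadjusted p under 0.05. A 200 and a 600 library with the same fat group, replicate number and final title number were taken as 2 libraries of 1 animal, an assumption. By animal, TAP1 to PSMB9 was listed in 5 of 7 high fat and 6 of 7 low fat pigs, and PSME2 in 2 of 7 and 4 of 7 (exact p = 0.592, adjusted p = 1 over 7883 sites). Here too 0% of all sites passed, with 1 at an unadjusted p under 0.05. The fat difference did not detectably change between the sets at any member (exact permutation, smallest p = 0.462 at PSME2, adjusted p = 1 over 8592 sites). Nor did it at any site (0%, with 3 at an unadjusted p under 0.05). The tests in this paragraph also set 7 against 7, in libraries or animals. A lone site could not pass after adjustment in them, so their 0 does not decide the question.

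Between the sets, each member site other than that of TAPBP was listed in fewer 600 than 200 libraries. Most sites went this way: of all 8592 tested, 7172 were listed less often in the 600 set and 570 more often. TAP1 to PSMB9 had 7 of 14 against 11 of 14 (−28.6 points, Fisher's exact test, p = 0.236, adjusted p = 0.798). The site between PSMB8 and TAP1 had 1 against 6 (−35.7 points, exact p = 0.0768, adjusted p = 0.772). PSME1 had 1 against 5, PSME2 4 against 6 and IRF1 5 against 7. Of 6 member sites tested 0 passed, against 0.489% of all 8592 sites, 42 in number, 41 of them listed less often in the 600 set. That test does not pair the libraries. With the replicate block of assumed animals the number of sites past the threshold was 0. The block is an exact sign test that counts only animals whose libraries differ. Even with all 14 differing the same way a lone site could not pass after adjustment, so this 0 does not decide the question. Among libraries with at least 500 peaks the number was 15. Among those libraries the difference at TAP1 to PSMB9 was 0 points, an outcome fixed by the cutoff. It lies between the 320 peaks of the largest library without the site and the 526 of the smallest with it. The 600 libraries had fewer peaks, and all carry another sequencing lane tag than the 200 libraries. The label and the lane thus cannot be told apart. Peak numbers overlap, from 196 to 17652 in the 200 libraries and from 39 to 6453 in the 600 libraries. The part of peak number in the differences was not tested. By animal, the TAP1 to PSMB9 site was listed in both libraries in 7, in the 200 library alone in 4 and in neither in 3. Where both listed it, the peak was wider in the 600 library in 6 of 7 animals, by 542 bp at the median. It was wider in 5 of 5 animals at IRF1, 4 of 4 at PSME2 and 1 of 1 between PSMB8 and TAP1, but at PSME1 the sole pair was narrower in the 600 library, with a difference of −167 bp. Over all sites 91.9% of 18040 such pairs were wider in the 600 library.

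The other genes of the pathway were taken from lists made by function. Of the peptide loading and class I chain genes 8 of 13 were listed, against 61.6% of protein-coding genes. CALR, the chaperone that works with tapasin, led with 13 libraries, before HSPA5 with 11 and PDIA3, the tapasin partner, and ERAP1, which trims peptides, with 9 each. The pig class I heavy chain gene SLA-1 was listed in 9 and SLA-2 in 3, while SLA-3, SLA-6, SLA-7 and SLA-8 had none. Such genes are close copies of each other, so their values are uncertain. Of interferon receptors, kinases and factors, 15 of 16 were listed with a median of 7 libraries, among them JAK2 with 13, STAT2 with 12 and JAK1 and IRF2 with 11 each. IRF3 was not listed.

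Of 14 class II genes and regulators 11 were listed, against 61.6% of protein-coding genes. They were led by the promoter factors NFYA with 13, CREB1 with 12 and NFYB with 11. The class II transactivator CIITA was listed in 7 libraries, CD74, the invariant chain, in 3, and SLA-DRA, SLA-DOA and SLA-DOB in none. Of 15 interferon-stimulated targets 5 were listed with a median of 0, USP18 in 7 libraries and MX2 and OAS1 in 2 each. GBP1, GBP2, IFIT1, IFIT2, IFIT3, OAS2, CXCL9, CXCL10, CXCL11 and IDO1 had no peak. TAP1 and PSMB9, which interferon also induces, were listed in 18 libraries.

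**Figure D4:**
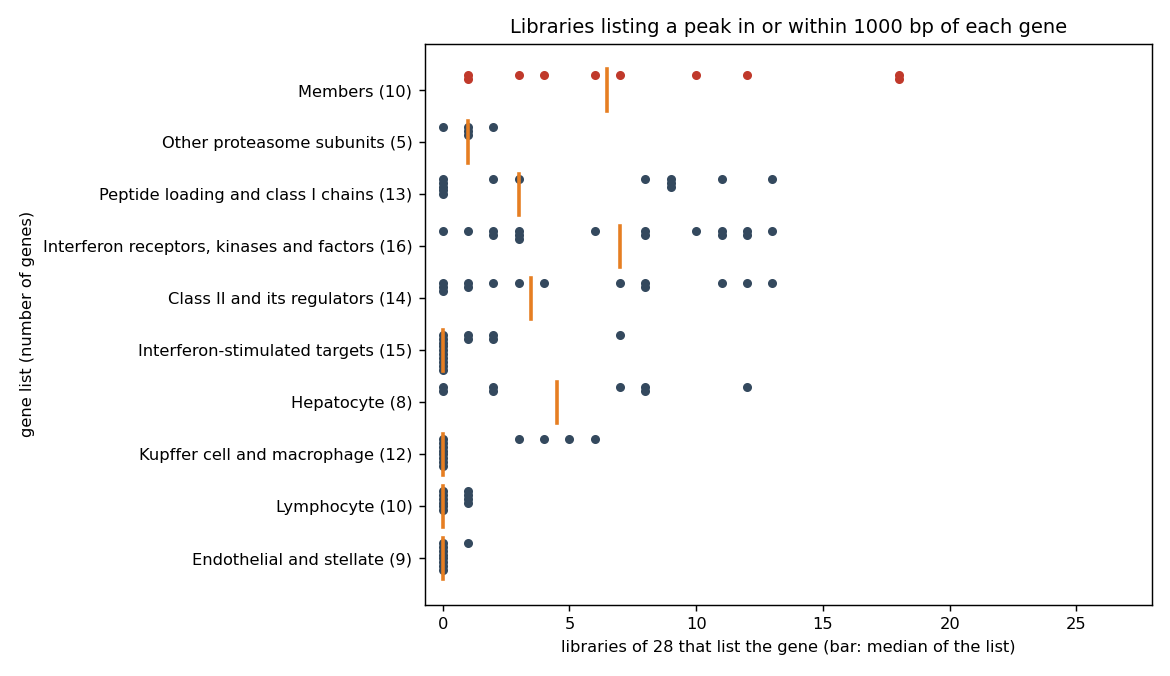
Number of libraries, of 28, that list a peak in or within 1000 bp of each gene. Each point is a gene, each row a list and the bar its median. TAP1 and PSMB9 stand at 18, to the right of each gene of the other lists, whose highest value is 13.

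Markers of immune cells, which carry these genes at a high level, were listed in part. The share of all protein-coding genes listed was 61.6%. Of 12 Kupffer cell and macrophage markers 4 were listed, CD14 in 6 libraries, MARCO in 5, CSF1R in 4 and CD5L in 3, while VSIG4, CD163, the complement genes C1QA, C1QB and C1QC, and CD68, CLEC4F and ADGRE1 had none. Of 10 lymphocyte markers CD3D, NKG7, CCL5 and PTPRC had 1 library each, and of 9 endothelial and stellate markers STAB2 had 1. The part of these cells in the sites was not tested.

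By its listing over the 28 libraries the TAP1 to PSMB9 site was matched exactly (Jaccard index 1, the shared libraries over those listing either) by 4 others. They lay at ATP13A1 on chromosome 2 (58266946 to 58268463), at DNAJC3 on chromosome 11 (65229082 to 65230996), at EDEM3 on chromosome 9 (125982288 to 125983879) and at the neighbours GPR137C and TXNDC16 on chromosome 1 (182202241 to 182204690). Each was listed in the same 18 libraries, those with most peaks.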

How the data were processed

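ATAC-seq peaks of 28 pig liver libraries were deposited as 1 list. Per the submitters' processing notes, FastQC, BWA, SAMtools, Picard, Genrich and the Sscrofa11.1 build were used; parameters, roles and versions are not given in the sources used here. The deposited columns used are the −log10 p, the signal value and the score of each peak, all the authors' own. Among scores below the cap, 99.99% match the deposited signal per base, scaled and rounded, when starts count from 0, so starts are printed with 1 added. No counts were used and the depth is unknown.

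Peaks that overlap by at least 1 bp were joined into sites. A site was called listed in a library with a peak in it. Sites in at least 3 libraries were compared by two-sided Fisher's exact tests with Benjamini-Hochberg adjustment at 0.05, and the change of the fat difference by an exact permutation of fat over animals. Alternatives were another overlap, no minimum, stronger peaks, each library left out, a replicate block, and other windows. Procedures were tested on simulated data. Software was scipy 1.17.1 and pandas 2.3.3 under Python 3.11.15, with numpy 2.4.6, and matplotlib 3.10.9 for figures.

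Members and lists were chosen with earlier results of these data known. Named genes were all members and, of each list, up to 4 leading genes and part of those without a peak. The 3 genes listed most like the leading member site were named with their ties. Others were added after their values were seen. A result the rule would name is not reported here. Motifs and sequences were not used here.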

Additional observations from a re-analysis of the deposited data

Results flagged for a closer look

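At the site between PSMB8 and TAP1, peak width in 1 of 4 low fat 200 libraries stood apart. It was 507 bp, while the nearest of the others was 459 bp and the lowest 450 bp. The gap was 0.842 of the range of the group. It is 1 flag among 16 groups examined, and chance flags about 1 in 20 such groups.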

How the results depend on the processing

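The number of sites listed differently between the 600 and 200 libraries was 42. It was 0 with the replicate block of assumed animals, whose sign test could not pass a lone site after adjustment. With libraries of at least 500 peaks, a choice made after seeing the data, it was 15, and the cause was not tested. Leaving out 1 library or animal at a time gave 42 to 49, and the fat comparisons stayed at 0 under each alternative run. With at most 7 against 7, a lone site could not pass after adjustment in these fat comparisons. Their unchanged 0 thus decides nothing. For the fat comparisons the replicate block is an exact sign test over 7 pairs. Its smallest p is too large for a few sites to pass after adjustment, so its 0 decides nothing. Same-animal pairing is an assumption and was not established. Among pairs of a 200 and a 600 library, 13 of 14 correlated above 0.1, with the lowest at 0.0765 and the median at 0.358. High and low fat libraries share only a number. They had 5 of 7 pairs above 0.1 in the 200 set and 6 of 7 in the 600 set, with medians of 0.208 and 0.470.

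With peaks above the median −log10 p of their set, the difference at PSME1 turned to 14.3 percentage points in the 200 set and 14.3 by animal, that at IRF1 in the 600 set to 14.3, and the change between sets at PSME1 to −14.3. With libraries of at least 500 peaks the difference of 600 against 200 turned to 7.79 points at IRF1 and 2.60 at PSME2. None of these was past the threshold in any setting. Members with a peak numbered 8 with stronger peaks, which left out TAP2 and TAPBP, 9 with a 500 bp window, which left out PSMB8, and 9 with gene ends alone, which left out NLRC5. The absence of a peak in a library with few peaks does not show closed chromatin.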
